A study of Manihot esculenta with 32 samples.

Results

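Manes.02G118300 is a cassava gene annotated as a member of the aquaporin-like superfamily, and it was chosen by name because its transcripts had been seen in embryogenic cultures. Its levels in friable embryogenic callus (FEC) and organized embryogenic structures (OES) against the plant organs are therefore given as a description, with no test. It was 1 gene of 32732 loci with a gene name, and it occupied 1 locus (XLOC_004968) shared with no other gene. The study's gene lists place this locus on chromosome 2 of assembly AM560-2 v6.1, from 8750875 to 8752508. The atlas held 32 RNA-seq libraries of cultivar TME 204 in 11 sample types, with 3 replicates of each and 2 of storage root. Leaf blade, midvein, petiole, stem, lateral bud, shoot apical meristem (SAM), fibrous root, storage root and the root apical meristem (RAM) came from glasshouse plants aged 3 months. OES were 4 weeks old and FEC, a disorganized callus of pre-embryo units derived from OES on another basal medium, was 7 weeks old by the sample labels, while 3 weeks of culture stand in the methods text. Both cultures were grown with the auxin picloram and in FEC also with added tyrosine and moxalactam, so medium and sample type cannot be told apart. All groups share 1 cultivar, each SAM or RAM sample pooled 6 meristems, and RNA of these 2 sample types was extracted with a different kit. Organs were dissected by hand and have no sharp boundaries, so each sample held several cell types.

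Aquaporins are membrane channels that let water, and in some members small neutral solutes such as glycerol, boric acid or hydrogen peroxide, cross a membrane passively. In plants the family is divided by sequence and location into plasma membrane intrinsic proteins (PIPs), tonoplast intrinsic proteins (TIPs) of the vacuole, NOD26-like intrinsic proteins (NIPs) and smaller groups. PIPs and TIPs are best known for water uptake and transport in roots and vascular tissue and for the turgor that drives cell expansion, whereas several NIPs carry uncharged solutes. The annotation does not say to which of these groups Manes.02G118300 belongs.

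Library depth, counted as fragments assigned to loci with a gene name, lay between 4175114 and 24123487. The library labels were checked against marker genes chosen by words of the annotation. The summed FPKM (fragment counts divided by transcript length and library size) of 30 photosystem and light-harvesting loci was 61432 to 73334 in leaf and 99.5 to 125 in FEC. That of 8 WUSCHEL-related homeobox loci, a family with members that act in early embryos of Arabidopsis, was 484 to 590 in FEC, 109 to 125 in OES and at most 31.7 in any plant library. The FEC sum rests on 2 of the 8, Manes.04G033600 (270 FPKM) and Manes.17G051300 (243 FPKM); the other 6 were highest in OES (2 loci), lateral bud (2 loci), fibrous root or storage root, as Manes.05G124300 with 2.51 FPKM in FEC and 19.7 FPKM in fibrous root. By contrast, 2 loci annotated as somatic embryogenesis receptor-like kinase 1 summed to 5.39 to 7.47 FPKM in FEC and to 47.5 to 61.5 FPKM in petiole. Their sums in OES (1.29 to 2.32 FPKM), SAM (1.90 to 2.34 FPKM) and RAM (2.25 to 2.57 FPKM) lay below FEC. The larger locus spans several genes, with means of 43.2 FPKM in petiole and 5.73 FPKM in FEC. No gene was annotated by name as BABY BOOM, LEAFY COTYLEDON, AGL15, FUSCA3 or ABSCISIC ACID INSENSITIVE 3 in the gene lists used. None matched Casparian strip or granule-bound starch synthase either. The sum of 5 meristem loci (knotted or plethora) was 249 to 255 FPKM in SAM and 19.6 to 26.2 FPKM in RAM. It was 240 to 296 FPKM in storage root and 75.5 to 94.1 FPKM in leaf, so it did not set the meristems apart. Cyclin B loci were highest in SAM (mean sum 145 FPKM). Manes.09G108300 (the study's Pt2L4) was highest in storage root (10865 FPKM) and a nitrate transporter 2 locus in fibrous root (4.42 FPKM).

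Transcripts of Manes.02G118300 were abundant in FEC, present at a lower level in OES and at or near 0 in every plant organ. In the FEC libraries its level was 185, 484 and 222 FPKM in replicates 1, 2 and 3. In the OES libraries it was 49.5, 56.9 and 55.5 FPKM. The FEC and OES ranges did not overlap: the lowest FEC library was 3.26 times the highest OES library. The means were 297 ± 163 FPKM in FEC (SD, n = 3) and 54.0 ± 3.93 FPKM in OES (SD, n = 3).

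The deposited fragment counts show similar levels on a scale of library totals without gene length. FPKM did not stand in a fixed proportion to this scale. In stem replicate 2, 1 fragment was 0.114 FPKM and 0.0683 per 1000000, and in lateral bud replicate 2 it was 0.0553 FPKM and 0.0848 per 1000000. In FEC replicates 1, 2 and 3 there were 2792, 7025 and 5375 fragments on the locus, or 198, 457 and 223 per 1000000 fragments on named loci. In OES they were 721, 747 and 1100 fragments, or 55.8, 53.7 and 63.2 per 1000000. OES replicate 2 was thus the lowest OES library on this scale and the highest by FPKM. The exact 95% Poisson interval was 446 to 468 per 1000000 in FEC replicate 2, above that of either other FEC library (191 to 206 and 217 to 229). These intervals hold no spread between biological samples. All 32 libraries held a whole number of fragments at this locus.

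Among all named loci, Manes.02G118300 ranked 535th, 117th and 457th by FPKM in FEC replicates 1, 2 and 3, within the highest 1.63%, 0.357% and 1.396%. In OES replicates 1, 2 and 3 it ranked 2813th, 2509th and 2521st, within the highest 8.59%.

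In the plant organs the gene was represented by single fragments. Of the 26 plant libraries, 15 had 0 fragments at the locus and 11 had 1 fragment. SAM had the highest FPKM of the plant sample types, with 0.210, 0 and 0.272 FPKM in replicates 1, 2 and 3. Midvein had 0.117, 0 and 0.0804 FPKM. In petiole the levels were 0.169, 0 and 0 FPKM, and in leaf 0.102, 0 and 0 FPKM. The values above 0 are each the value of 1 fragment, which varied among libraries from 0.0484 to 0.272 FPKM.

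Stem had 0, 0.114 and 0 FPKM, and storage root 0 and 0.0796 FPKM. Fibrous root had 0, 0 and 0.163 FPKM. Lateral bud had 0, 0.0553 and 0.0484 FPKM, and RAM had 0 fragments in all 3 libraries. Over all plant libraries together there were 11 fragments among 270214548 on named loci, or 0.0407 per 1000000 with an exact 95% Poisson interval of 0.0203 to 0.0728. A count of 0 in a single plant library allows up to 0.197 to 0.719 fragments per 1000000, depending on its depth. Intervals and limits cover counting error only.

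**Figure D1:**
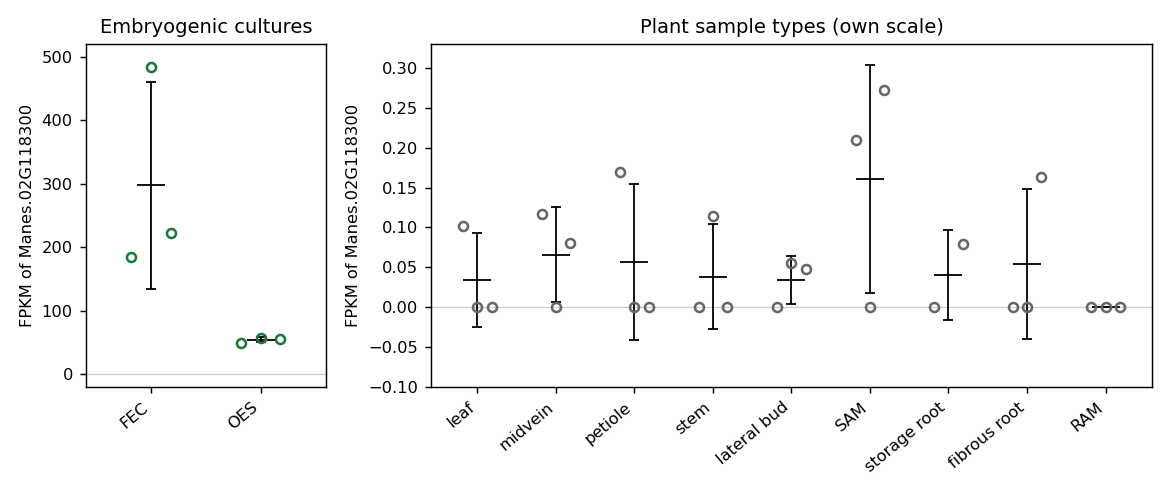
FPKM of Manes.02G118300 in each of the 32 libraries by sample type, with FEC and OES on the left and the 9 plant sample types on the right on a scale of their own. Circles are libraries, horizontal bars are means and error bars are ± SD. FEC lies between 185 and 484 FPKM, OES between 49.5 and 56.9 FPKM, and no plant library exceeds 0.272 FPKM.

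By mean FPKM the order was FEC, OES, SAM (0.161), midvein (0.0657), petiole (0.0564), fibrous root (0.0543), storage root (0.0398), stem (0.0379), lateral bud (0.0346), leaf (0.0341) and RAM (listed at 0). Neighbours from SAM downwards were not told apart. Not one of the 36 pairs of plant sample types reached the limit of 1 FPKM for testing. Without that limit, edgeR's quasi-likelihood test called 0 of the 36 pairs and 0 had an unadjusted p under 0.05. The lowest Benjamini-Hochberg adjusted p of edgeR over these pairs was 0.168. The order among plant organs rests on 0 to 2 fragments per sample type. With at most 1 fragment per library, a test could not be expected to tell such pairs apart. The gene was also chosen with these levels known, so no conclusion is drawn from the 36 pairs.

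As a ratio of pooled fragments per 1000000, OES exceeded the plant libraries 1427-fold (95% exact counting interval 796 to 2861) and FEC exceeded them 6964-fold (3891 to 13954). Against SAM, where 2 fragments were counted, the ratio was 553 for OES (153 to 4567) and 2699 for FEC (747 to 22287). Against RAM, taking 3 fragments over the 3 libraries as the floor, OES was at least 592-fold higher and FEC at least 2889-fold higher. On the FPKM scale the lower embryogenic mean was 336 times the highest plant mean, a value that ranged from 224 to 515 when single libraries were left out. In bulk samples, fewer cells that express a gene cannot be told apart from less RNA per cell.

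Between the cultures, the log2 fold change of Manes.02G118300, FEC minus OES, was 2.35 ± 0.29 (SE, edgeR), and the ratio of mean FPKM was 5.50. The gene was chosen with its levels in all libraries known, and its annotation came from the list of genes that differ between OES and FEC, so this difference is a description with no test.

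The size of that difference depended on FEC replicate 2. Without it, the FEC mean was 204 FPKM, the ratio was 3.77 and the log2 fold change was 1.87 ± 0.30 (SE). The coefficient of variation of Manes.02G118300 over the FEC libraries was 54.8%, against a median of 10.4% over the 12455 named loci of at least 10 FPKM in FEC, of which 2.26% varied more. In OES it was 7.28%, against a median of 10.2%.

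The 22 genes on 23 loci annotated as aquaporins or intrinsic proteins were next compared with Manes.02G118300. They comprise 10 PIP, 8 TIP and 3 NIP loci and 2 annotated only as aquaporin-like. This list is not the whole cassava family: the annotations come from the study's lists of genes that differ between pairs of these sample types, so the loci were in part selected on these samples. The list's directions are therefore no independent evidence.

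Within this partial list, Manes.02G118300 alone held most of the summed FPKM in FEC. Its share of the summed FPKM of the list was 63.2 ± 5.52% in FEC (SD, n = 3; range 59.6 to 69.6%) and 10.3 ± 1.62% in OES (SD, n = 3; range 8.66 to 11.9%). In no plant library did it exceed 0.0107%. By mean FPKM it ranked first of the 23 loci in FEC, 4th in OES, and between 20th and 23rd in each plant sample type.

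The sum of the whole list was lowest in the cultures on the deposited scale. It was 458 ± 208 FPKM in FEC and 534 ± 92.6 FPKM in OES (SD, n = 3), against 1144 ± 174 FPKM in leaf, the lowest plant mean, and 10738 ± 3160 FPKM in storage root (SD, n = 2). Without Manes.02G118300 the sum was 161 ± 45.1 FPKM in FEC and 480 ± 91.4 FPKM in OES. TIP loci together reached 13.9 ± 1.35 FPKM in FEC and 81.1 ± 26.01 FPKM in OES, against 4828 ± 1533 FPKM in storage root. The RAM libraries differed widely in the summed list, from 834 to 4477 FPKM. The lower sum of the cultures against leaf depended on the scaling, since the FPKM of all named loci added up to 721760 to 855416 in FEC and 1595333 to 1665591 in leaf. With every library rescaled to a total of 1000000, an alternative chosen after seeing the data, the list summed to 429 to 916 in FEC, 596 to 795 in OES and 576 to 818 in leaf, so these ranges overlapped, and the lowest RAM library stood at 655. The other 7 plant sample types stayed at or above 1647 on that scale. FEC had 5 list loci whose mean reached 10 FPKM and OES had 10, while the plant sample types had 12 to 16.

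**Figure D2:**
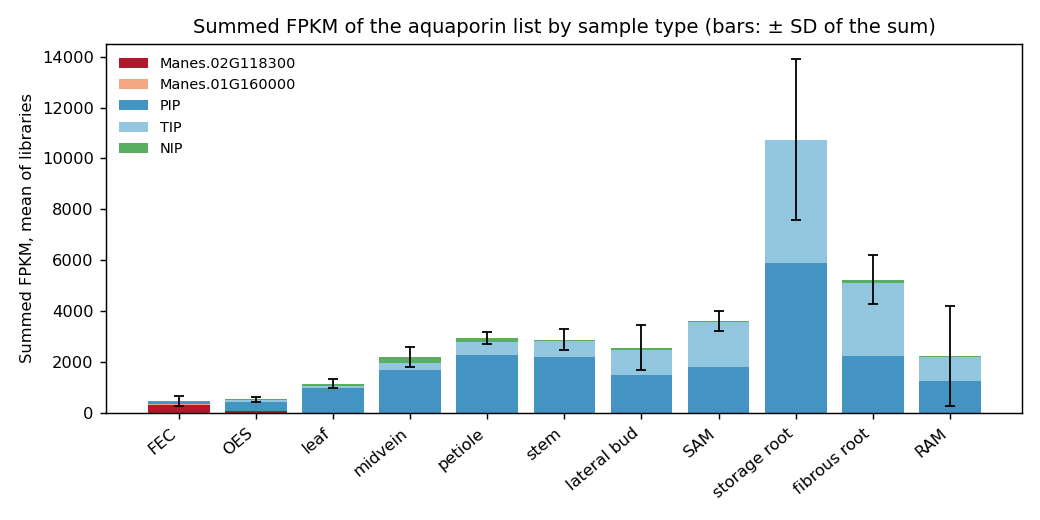
Summed FPKM of the aquaporin list in each sample type, as the mean over libraries, stacked by Manes.02G118300, Manes.01G160000 (the other aquaporin-like locus), PIP, TIP and NIP loci. Error bars are ± SD of the whole sum over libraries. The sum is 458 FPKM in FEC, most of it Manes.02G118300, and 10738 FPKM in storage root, nearly all PIP and TIP.

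The most abundant aquaporin of the list differed between sample types. In OES, midvein, petiole and stem it was the PIP Manes.02G020100 (annotated PIP1;4), at 156 ± 33.9 FPKM in OES and 914 ± 105 FPKM in petiole. The gamma TIP Manes.09G062300, a vacuolar membrane channel, led in lateral bud, SAM and storage root, where it reached 3468 ± 1185 FPKM. Leaf was led by the PIP Manes.11G096600 (334 ± 132 FPKM), fibrous root by the PIP Manes.10G016600 (861 ± 279 FPKM) and RAM by the PIP Manes.04G021200 (415 ± 464 FPKM). The last rests on RAM replicate 2: Manes.04G021200 stood at 117, 950 and 178 FPKM in the RAM libraries, and without replicate 2 its mean of 148 FPKM was below the 264 FPKM of Manes.02G020100 and the 236 FPKM of Manes.09G062300. Leads by the mean did not hold in every library elsewhere either. In SAM replicate 3 the TIP Manes.03G062300 (879 FPKM) exceeded Manes.09G062300 (787 FPKM). In fibrous root replicate 3 the TIP Manes.01G081600 (668 FPKM) exceeded Manes.10G016600 (583 FPKM). In FEC the highest mean was that of Manes.02G118300, whose group within the family is not annotated.

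**Figure D3:**
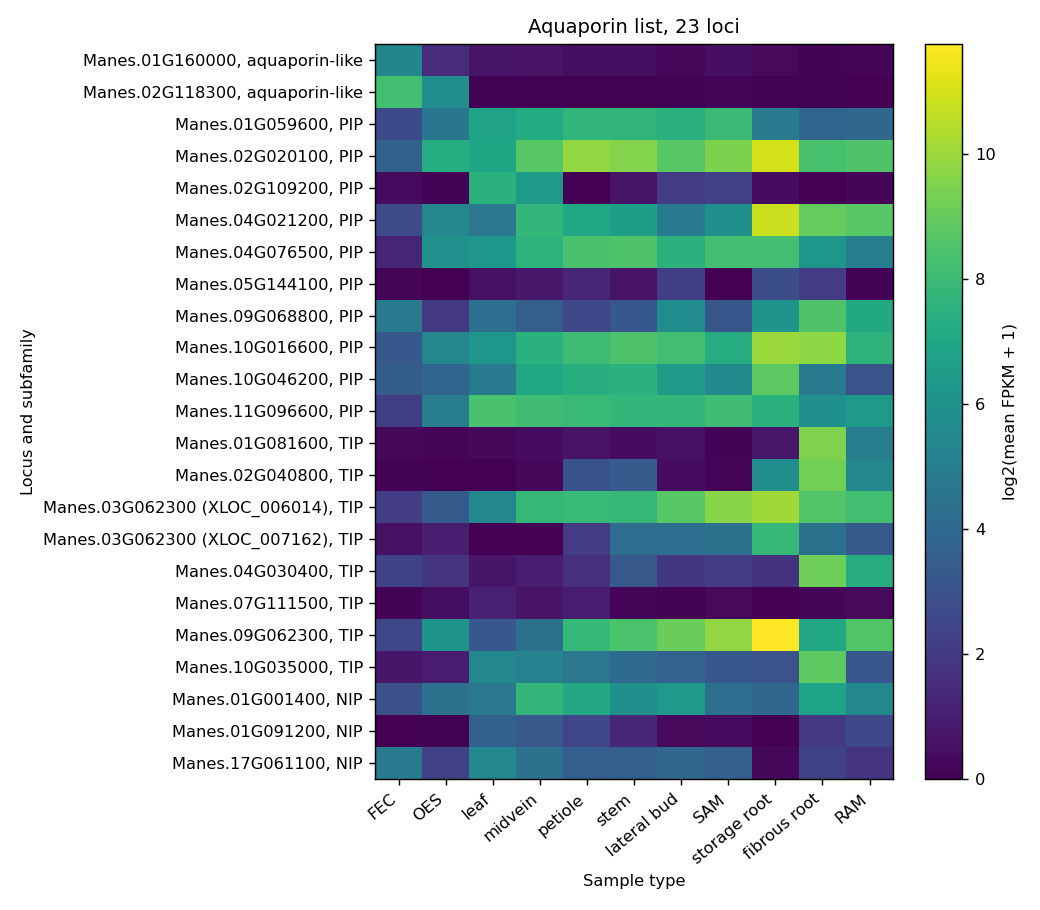
Heat map of log2(mean FPKM + 1) for the 23 aquaporin loci (rows, grouped as aquaporin-like, PIP, TIP and NIP) in the 11 sample types (columns). The 2 aquaporin-like loci at the top have their highest level in FEC, while most PIP and TIP loci have a lower mean in FEC than in most plant organs.

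Between FEC and OES, 16 of the 23 loci reached 1 FPKM in either culture, Manes.02G118300 among them. A call needed an adjusted p under 0.05 by edgeR's quasi-likelihood test over all 22927 loci and a ratio of mean FPKM above 4, which 13.0% of them met. Of the 15 loci other than Manes.02G118300, 3 were called higher in FEC (background 6.16% of all tested loci) and 7 higher in OES (background 6.89%). Of the PIPs, 6 of 8 tested were higher in OES and 1 in FEC. Of 4 TIPs tested, 1 was higher in OES, and of 2 NIPs, 1 was higher in FEC. The aquaporin-like locus Manes.01G160000 was higher in FEC. The median log2 fold change, FEC minus OES, of the 15 tested loci other than Manes.02G118300 was -1.59, and that of all tested loci was 0.04. All called loci were in the list of genes that differ between OES and FEC. Of the 5 tested loci outside it, 0 were called, although 2 had an adjusted p under 0.05 with ratios under 4-fold. The OES and FEC list was drawn from these same libraries, so the calls and their excess over the background are a description and no independent evidence.

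Manes.01G160000, the other aquaporin-like gene, had the largest ratio in the direction of FEC. Its levels were 19.4, 69.0 and 33.8 FPKM in FEC and 0.915, 1.45 and 3.05 FPKM in OES, a log2 change of 3.61 ± 0.80 (SE, edgeR). FEC replicate 2 was the highest for this gene too, as for 48.0% of 11284 single-gene loci of at least 10 FPKM in FEC. Its ratio of mean FPKM was 22.6, against 5.50 for Manes.02G118300, at lower levels in both cultures.

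Manes.09G068800, annotated as PIP2, stood at 21.9, 34.8 and 22.9 FPKM in FEC and 2.71, 2.12 and 4.31 FPKM in OES. Its log2 fold change was 3.13 ± 0.60 (SE, edgeR). Manes.17G061100, annotated as NIP1;2, stood at 25.4, 33.7 and 22.96 FPKM in FEC and 4.34, 4.22 and 3.35 FPKM in OES. Neither gene was confined to the cultures: Manes.09G068800 had a mean of 371 FPKM in fibrous root and Manes.17G061100 of 44.2 FPKM in leaf.

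In the other direction the largest ratio was that of Manes.04G076500, annotated as PIP2;8. Its levels were 1.30, 1.06 and 1.58 FPKM in FEC and 59.4, 56.7 and 67.2 FPKM in OES, a log2 fold change of -5.47 ± 0.48 (SE, edgeR). The gamma TIP Manes.09G062300 stood at 4.68, 3.60 and 6.28 FPKM in FEC and 55.2, 54.9 and 91.5 FPKM in OES. Manes.02G020100 stood at 10.6, 13.3 and 10.6 FPKM in FEC and 143, 131 and 195 FPKM in OES. In all 3 genes the FEC and OES ranges were far apart, opposite in direction to Manes.02G118300.

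**Figure D4:**
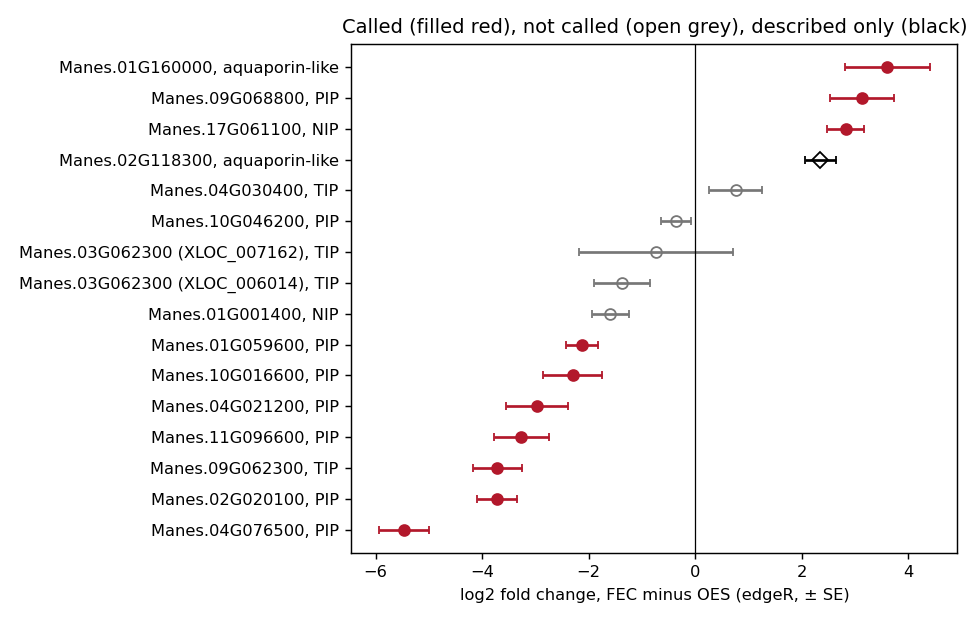
Log2 fold change, FEC minus OES, for 16 aquaporin loci from edgeR's quasi-likelihood fit, with bars of ± SE. Filled red points were called, open grey points were not, and the open black diamond is Manes.02G118300 (2.35), given as a description. The 3 changes called toward FEC lie above it, and the 7 called toward OES reach -5.47.

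Against the 9 plant sample types, the other aquaporin loci were mostly lower in the embryogenic cultures. Of 21 other loci tested, 15 were called lower in FEC and OES (background 13.1% of 25795 loci) and 1 was called higher (background 6.34%). Of the 23 list loci, 12 entered only through the study's comparisons between plant organs, which favours loci high in an organ. The excess of lower loci over the background is therefore a description and no independent evidence. The lower loci were 8 of 10 PIPs, 6 of 7 TIPs and 1 of 3 NIPs, and the higher locus was Manes.01G160000. In 4 of the 15 both culture means lay below every plant mean, while for the other 11 the lowest plant mean did not exceed the higher culture mean. The gamma TIP Manes.04G030400 had 4.23 FPKM in FEC, above 6 of the 9 plant means, and 567 FPKM in fibrous root. Its edgeR log2 difference was only -0.88, while its ratio of mean FPKM was 0.0409. For Manes.09G068800, also called lower, these values were -1.57 and 0.196. The adjusted p rests on log means and the 4-fold limit on mean FPKM, so the 2 measures can differ. The TIP2;3 Manes.01G081600 had 0.204 FPKM in FEC and passed 1 FPKM only in fibrous root (719) and RAM (30.9). For Manes.01G160000 the mean was 21.3 FPKM over FEC and OES and 0.318 FPKM over the plant sample types. Its log2 difference was 4.57 ± 0.40 (SE, edgeR). Most of the culture mean came from FEC (40.7 FPKM), while OES had 1.81 FPKM. OES replicate 1 (0.915 FPKM) lay below midvein replicate 1 (1.04 FPKM). This locus entered the list only through the study's comparison of OES with FEC, so its call is a description and no independent evidence. Over FEC and OES against the plant sample types, Manes.09G062300 stood at 36.03 against 673 FPKM and Manes.02G020100 at 83.9 against 671 FPKM.

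The median log2 difference, embryogenic minus plant, was -3.26 over the 21 loci and 0.04 over all loci tested, which the choice of the list favours as well. For 4 further loci the edgeR contrast of log means had no usable standard error, at least 1 sample type being at 0 fragments, and limma on log2(FPKM + 1) and DESeq2 each called 19 loci lower. Manes.02G118300 was left out of this count because it was chosen for this contrast.

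Loci with the tissue profile most like that of Manes.02G118300 were sought among 19195 single-gene loci whose mean reached 10 FPKM in any sample type. Likeness was Pearson's r of log2(FPKM + 1) over the 32 libraries. The median r of all candidates was -0.07, 83 loci (0.432%) had an r of at least 0.95, and the 10 nearest lay between 0.993 and 0.996. Since 26 of the 32 points are near 0 for such loci, r mainly measures the contrast of the 6 embryogenic libraries with the rest.

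The 10 nearest loci covered 9 genes, of which 2 carried an annotation. Manes.03G141500, annotated as a histone superfamily protein, one of the proteins that package DNA, was second (r = 0.995). It was more abundant than Manes.02G118300, with 498, 661 and 539 FPKM in FEC and 101, 101 and 125 FPKM in OES. Its ratio of FEC to OES was 5.20, close to the 5.50 of Manes.02G118300. In plant libraries it reached at most 1.25 FPKM.

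Manes.08G068800, annotated as nuclear factor Y subunit B6, ranked 4th (r = 0.994). In Arabidopsis the subunit of this name, also called LEC1-LIKE, is a transcription factor subunit active in embryo development. Its levels were 248, 455 and 284 FPKM in FEC and 60.2, 54.9 and 95.5 FPKM in OES. Its highest plant library was at 1.94 FPKM.

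Manes.17G112800 appeared at 2 loci. At XLOC_034173, the nearest of all (r = 0.996), it stood at 82.1, 200 and 131 FPKM in FEC and 27.3, 33.3 and 56.2 FPKM in OES. At XLOC_034786 (r = 0.994) it stood at 90.2, 110 and 97.0 FPKM in FEC. Fragments may have been split between these 2 loci, so their separate levels are uncertain. The remaining 6, Manes.18G043600, Manes.04G153000, Manes.11G078400, Manes.17G064200, Manes.05G199200 and Manes.14G057500, had no annotation in the lists used and means from 13.9 to 83.6 FPKM in FEC and 3.62 to 39.2 FPKM in OES.

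**Figure D5:**
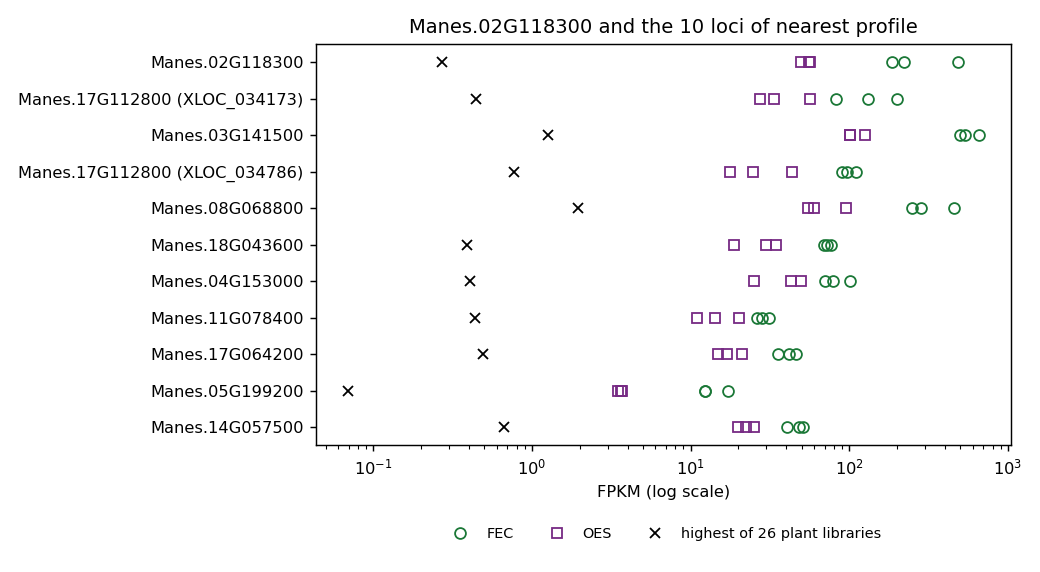
FPKM on a log scale of Manes.02G118300 and the 10 loci of nearest profile, with circles for the 3 FEC libraries, squares for the 3 OES libraries and a cross for the highest of the 26 plant libraries. In every row FEC lies above OES, and the cross lies between 0.0692 and 1.94 FPKM.

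All 10 were higher in every FEC library than in every OES library, which the choice by likeness favours, with ratios of mean FPKM from 1.88 to 5.20. FEC replicate 2 was the highest FEC library for 9 of the 10, as for Manes.02G118300, which the same choice favours. It was also the highest for 48.0% of 11284 single-gene loci of at least 10 FPKM in FEC.

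The identity of the nearest loci depended on the measure. Of the 10, 7 remained with r over the 11 sample-type means, 4 with log2(FPKM + 0.1), 2 with Spearman's rho, 2 with the Jensen-Shannon distance and 0 with FPKM on a linear scale. Spearman's rho of the 10 with Manes.02G118300 was 0.541 to 0.734, with plant libraries tied at 0 or ranked by single fragments.

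Among the 100 nearest loci (r down to 0.939), 29 carried an annotation. They included 2 of the 8 WUSCHEL-related homeobox genes, which were named after their values were seen; the other 6 had their highest mean elsewhere than in FEC. Manes.04G033600 (WUSCHEL related homeobox 2, r = 0.980) had means of 270 ± 40.04 FPKM in FEC and 39.4 ± 5.49 FPKM in OES, and at most 1.73 FPKM in a plant sample type. Manes.17G051300 (WUSCHEL related homeobox 8, r = 0.972) had 243 ± 16.5 and 23.6 ± 4.97 FPKM, and at most 1.81 FPKM. In Arabidopsis, genes of these names are expressed in the zygote and early embryo. No other aquaporin of the list was among the annotated genes of the 100.

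Manes.02G118300 was 1 of 21 single-gene loci, of 19 genes, above 10 FPKM in all 6 embryogenic libraries and below 1 FPKM in all 26 plant libraries. With limits of 8 and 4 FPKM there were 62 such loci. By the lower of its FEC and OES means, Manes.02G118300 was 8th of these 62. Among the 21 it was second (54.0 FPKM), after Manes.13G043500 (69.4 FPKM) and before Manes.04G091800 (51.0 FPKM), Manes.13G085700 (50.5 FPKM) and Manes.12G043500 (42.3 FPKM). These 4 differed from it in the balance of the cultures: their FEC means were 91.9, 56.6, 86.7 and 91.9 FPKM, and Manes.02G118300 had the second highest FEC mean of the 21. Its 11 plant fragments were more than those of 9 of the loci. The 10 nearest by profile included 7 that met the same limits.

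The neighbouring named loci on chromosome 2 did not share the profile. Manes.02G118100, of unknown function (DUF789), had 4.14 ± 0.28 FPKM in FEC, 11.7 ± 0.42 FPKM in OES and 141 ± 35.98 FPKM in storage root, and its r with Manes.02G118300 was -0.57. Manes.02G118200 was even, between 10.1 FPKM in FEC and 25.7 FPKM in fibrous root. On the other side, Manes.02G118400 stood at 16.1 FPKM in FEC, 9.19 FPKM in OES, 21.5 FPKM in SAM and 27.8 FPKM in RAM, with r = 0.40. Manes.02G118500, annotated as alternative NAD(P)H dehydrogenase 1, a mitochondrial-type respiratory enzyme, stood at 30.9 FPKM in FEC and 43.4 FPKM in leaf, with r = 0.13. All 4 neighbours were expressed in plant organs, where Manes.02G118300 was at single fragments.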

How the data were processed

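Reads were trimmed with Trimmomatic 0.32, mapped with TopHat2 2.0.10 to AM560-2 v6.1 and quantified with Cufflinks and Cuffdiff 2.2.1; the versions are those of the submitters' processing notes, and the study's methods give another TopHat2 version. The authors deposited FPKM and estimated counts of fragments per locus for each library; 79.6% of these counts above 0 are whole (within 1e-06). Counts were rounded and tested with edgeR 4.0.16 (R 4.3.3; quasi-likelihood, TMM factors 0.720 to 1.15, 11 sample-type means over 32 libraries). Tests covered loci reaching a mean of 1 FPKM in one of the groups compared, with Benjamini-Hochberg adjustment, and calls needed an adjusted p under 0.05 and a ratio of mean FPKM above 4. Alternatives used limma 3.58.1, DESeq2 1.42.0, other filters and scalings, and left out single libraries. Loci without a gene name held 1.73% to 5.76% of fragments and stayed out of library totals. Python 3.11.15 with pandas 2.3.3, numpy 2.4.6 and scipy 1.17.1 gave the remaining values.

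The gene and all lists were chosen with earlier results of these data known. Named genes were Manes.02G118300, the 10 loci of nearest profile, in the aquaporin list the 3 called loci per direction of largest ratio and the highest locus per sample type, the 2 neighbours on each side by gene number, and the 5 embryogenic-only loci of highest lower mean, unless said otherwise. Annotations came from the study's gene lists, which were held in part, so a gene without one here may have one. Protein identity was not computed. Replicates are biological per the study's methods, and no 2 libraries of a sample type agreed within sampling noise.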

Additional observations from a re-analysis of the deposited data

How the results depend on the processing

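The log2 fold change of Manes.02G118300, FEC minus OES, was 1.87 to 2.57 when each of the 32 libraries was left out, and only without FEC replicate 2 was the ratio of means under 4. Replicate numbers did not pair the FEC and OES libraries (correlations of deviations -0.01, -0.04 and -0.01), and with the replicate block the value was 2.26, with no call changed. Leaving out libraries gave 3 to 4 aquaporin loci higher in FEC with Manes.02G118300 counted, which was the one lost, and 6 to 7 higher in OES, where Manes.01G059600 was lost without FEC replicate 2 or without OES replicate 3. It gave 14 to 15 loci lower and 1 higher in the cultures than in plant organs. No plant pair was called, as no plant library reached the limit of 1 FPKM for testing. The lower embryogenic mean was 224 to 515 times the highest plant mean. Shares were 60.0 to 65.0% in FEC and 9.44 to 11.1% in OES, and 7 to 10 of the nearest loci remained. Of these loci, 2 remained under Spearman's rho, 2 under the Jensen-Shannon distance, 4 under log2(FPKM + 0.1) and 0 under FPKM without a logarithm. With the list restricted to genes outside the OES and FEC list, an alternative chosen after seeing the data, 0 loci were called higher in FEC and 0 in OES, out of 5 tested. That list was drawn from these same libraries, so loci outside it were unlikely to be called and no conclusion is drawn. Levels in plant organs, at 0 or 1 fragment per library, are limited by depth.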

Other observations

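On the linear FPKM scale the 10 nearest loci were other genes. They included Manes.09G059600, with means of 884 ± 451 FPKM in FEC and 29.1 ± 7.66 FPKM in OES and no plant sample type above 0, and Manes.07G085500, annotated as a zinc transporter, with 501 ± 263 and 19.95 ± 5.51 FPKM. Manes.05G022900, annotated as a WSD1-like O-acyltransferase, an enzyme type that makes wax esters, had 60.8 ± 27.3 and 2.97 ± 0.93 FPKM. These genes were chosen after their values were seen.

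Further annotated genes among the 100 nearest on the log scale were Manes.18G007900, a prolyl oligopeptidase family protein (228 ± 74.0 FPKM in FEC, 36.7 ± 7.29 FPKM in OES), Manes.06G139700, annotated as 3-ketoacyl-CoA synthase 5, of a family that elongates very-long-chain fatty acids (134 ± 14.5 and 5.33 ± 2.05 FPKM), and Manes.05G118400, an oleosin family protein of the kind that coats oil bodies in seeds (21.2 ± 6.36 and 5.24 ± 1.13 FPKM).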
